A study of Mus musculus with 10 samples.

Results

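The 10 long noncoding RNA genes Malat1, Neat1, Kcnq1ot1, Norad, Gas5, Snhg1, Snhg3, Snhg12, Mir22hg and Mir17hg were followed across all libraries of the study. They were taken by symbol from a table of 55815 genes, and all 10 passed the filter on low counts, which kept 15767 genes. The libraries were made from polyadenylated RNA of iKCs, a mouse cell line transduced with vectors that the design text abbreviates LV, and the cells were sorted for the fluorescent marker mOrange and for viability. The vectors carried miR-342-3p for overexpression (n = 3), a mutated miR-342-3p as its control (n = 2), a sponge for miR-342-3p (n = 3) or a scramble sponge as its control (n = 2). Sponge transcripts hold many copies of a site that keeps a microRNA from its targets. According to its title, the series is about enforced miR-342 expression in macrophages of liver metastases. All groups share 1 cell line and the same sort, the promoters of the vectors are not given in the sources used here, and the titles call the libraries biological replicates without saying how the cultures were separated. The p-values therefore measure the spread between these libraries, which may be technical, and in bulk RNA fewer cells with a transcript and less of it per cell cannot be told apart.

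Depth was 25712732 to 59259988 counts per library. Mir342, the hairpin locus of the vector's microRNA, had 487, 483 and 242 counts in the overexpression libraries, against 136 and 133 counts in the mutated control libraries. It had 0 counts in all 5 sponge and scramble libraries, so these reads tell the miR-342-3p vectors from the sponge vectors and do not check the sponge label. Of 20 Kupffer cell and macrophage markers, Csf1r, C1qb, Cd68 and Adgre1 were abundant in every library, while the Kupffer cell markers Clec4f and Timd4 were at 0 counts in all 10 libraries. Vsig4 had at most 4 counts in a library. Cd5l, Nr1h3, Marco, Id3 and Spic had means of 2.1, 2.2, 3.4, 5.1 and 12.5 CPM (counts scaled to library size with TMM factors). The rest of the list had means from 104 CPM (Itgam) to 1209 CPM (C1qc). The summed level of the list was 9038 to 10350 CPM.

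Long noncoding RNAs act as RNA and not as templates of proteins. Malat1 is a component of nuclear speckles, where splicing factors are stored, and Neat1 is the scaffold around which paraspeckles assemble. Both are abundant nuclear RNAs of macrophages, and the abundant end of Malat1 and the long form of Neat1 lack a classical poly(A) tail, so libraries of polyadenylated RNA see them incompletely. Kcnq1ot1 is the paternally expressed antisense RNA that silences genes of the Kcnq1 imprinted domain. Norad, mostly cytoplasmic, binds Pumilio proteins. Gas5, Snhg1, Snhg3 and Snhg12 carry small nucleolar RNAs in their introns, and their spliced RNA is short-lived through nonsense-mediated decay, while Mir22hg and Mir17hg are the precursors of miR-22 and of the miR-17-92 cluster.

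The microRNAs in question are printed from RefSeq (GRCm38.p6) with the seed, bases 2 to 8 from the 5′ end, in capitals. They are shown because miR-342-3p is what the vectors carry or bind, and because the others are what the microRNA host genes Mir17hg and Mir22hg are known for.
miR-342-3p: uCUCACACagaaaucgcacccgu
miR-17-5p: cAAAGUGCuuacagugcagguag
miR-20a-5p: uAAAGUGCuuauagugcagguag
miR-18a-5p: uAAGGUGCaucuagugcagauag
miR-19a-3p: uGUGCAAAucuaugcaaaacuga
miR-19b-3p: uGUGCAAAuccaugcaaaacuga
miR-92a-3p: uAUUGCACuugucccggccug
miR-22-3p: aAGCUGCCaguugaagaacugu
The 6 microRNAs of Mir17hg shown have 4 distinct seeds: miR-17-5p shares its seed with miR-20a-5p, and miR-19a-3p shares its seed with miR-19b-3p. None of these seeds is the seed of miR-342-3p. Mature microRNAs were not measured here, and the hairpin genes inside Mir17hg and Mir22hg had 0 counts in every library. Per the file headers no option for reads over several genes was set, so reads over these hairpins went to neither gene.

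The 7-base match to the miR-342-3p seed, GTGTGAG, was searched on the sense strand of the longest annotated transcript of each gene (GENCODE vM21, GRCm38). Neat1 had 5 matches in 20771 bases. Of 19 other long noncoding RNA genes within 1.5 times that length, 42.1% had a match and the highest number was 4. Kcnq1ot1 had 5 matches in 93092 bases, against 9 and 9 in the 2 genes of like length. The other 8 genes had none. The Neat1 matches are shown with flanking sequence because Neat1 is the gene with the largest difference between overexpression and its control; the match is in capitals and all are on the minus strand of chromosome 19.
Neat1 position 1094, chr19:5844367-5844396: agcccctgccaGTGTGAGtcgtagcagtgc
Neat1 position 2605, chr19:5842856-5842885: aggaatttaatGTGTGAGccatgccttcaa
Neat1 position 9675, chr19:5835786-5835815: ccagggaacagGTGTGAGctccctctgtct
Neat1 position 10820, chr19:5834641-5834670: cctggttactcGTGTGAGtattcaactgtc
Neat1 position 15925, chr19:5829536-5829565: atctgggctccGTGTGAGaccgtggttccc
These are letter matches and no measure of binding.

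Norad is known for its many Pumilio elements, and TGTANATA, searched in the same way, occurred 11 times in its 4915 bases. Of 3695 long noncoding RNA genes of like length, 39.7% had the element, with a median of 0 and a highest number of 7. Kcnq1ot1 had 18, Neat1 4, Gas5 1 and Mir17hg 1, and the other 5 genes had none. Examples from Norad, on the minus strand of chromosome 2, show the element in capitals, and the last pair lies side by side.
Norad position 651, chr2:156392311-156392340: tagaagtcctgTGTATATAatatgaaaaag
Norad position 1147, chr2:156391815-156391844: agtaaacatgcTGTAAATAcctttttgtta
Norad position 2442, chr2:156390520-156390549: ctttgctatgcTGTATATAttgtacatact
Norad position 2451, chr2:156390511-156390540: gctgtatatatTGTACATActggacaaacg

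**Figure D1:**
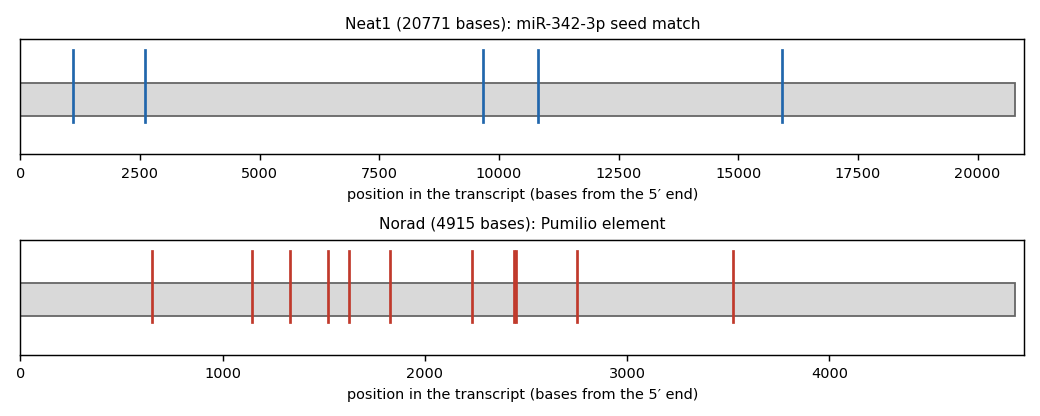
Positions, in bases from the 5′ end, of the 5 matches to the miR-342-3p seed in Neat1 (upper bar) and of the 11 Pumilio elements in Norad (lower bar), drawn to the length of each transcript. The Neat1 matches run from base 1094 to base 15925, and the Norad elements from base 651 to base 3526 of 4915.

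Many small nucleolar RNA host genes are known to start with a run of pyrimidines, the mark of transcripts whose translation follows growth signals. The RefSeq starts (GRCm38.p6) of Gas5, Snhg12 and Snhg1 are shown, 50 bases to either side of the start, because Snhg1 and Snhg12 shared a pattern across the libraries; capitals mark an unbroken run of C and T that begins with C within 3 bases of the start and is at least 5 long.
Gas5, chr1:161035116-161035215, plus strand: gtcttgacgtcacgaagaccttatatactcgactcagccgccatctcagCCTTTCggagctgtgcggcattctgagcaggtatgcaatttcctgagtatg
Snhg12, chr4:132308628-132308727, plus strand: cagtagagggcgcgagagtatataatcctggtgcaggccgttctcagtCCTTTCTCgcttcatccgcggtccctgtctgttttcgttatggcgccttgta
Snhg1, chr19:8723437-8723536, plus strand: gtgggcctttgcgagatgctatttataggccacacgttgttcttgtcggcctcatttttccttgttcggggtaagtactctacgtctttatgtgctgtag
Such a run occurred at this Gas5 start (6 bases), at the Snhg12 start (8 bases) and at the Snhg3 start (5 bases), and it occurred in 11.5% of 32841 RefSeq promoters. TATA-like letters were searched on the sense strand 11 to 50 bases before the start. The string TATATA, or in its place the string TATAAA, or failing both the string TTTATA, occurred at 3 of the 9 starts that RefSeq gives for these genes, those printed, against 4.05% of promoters. The other 6 starts, among them that of Snhg3 and another start of Gas5, had none. The window of the Mir17hg start (chr14:115044340-115044439) holds miR-19b-3p (chr14:115044358-115044380). That start thus lies inside the microRNA cluster and is not the start of the whole host transcript. RefSeq promoters were matched for 8 of the 10 genes.

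Per kilobase of annotated exon, Malat1 was the highest of the 10 genes at a mean of 71.8 RPKM over the 10 libraries, followed by Norad at 41.5 RPKM. Neat1 had 10.7 RPKM, Gas5 10.04 RPKM, Mir22hg 9.64 RPKM and Snhg1 6.84 RPKM. Snhg12 had 3.30 RPKM, Mir17hg 2.00 RPKM, Snhg3 0.474 RPKM and Kcnq1ot1 0.103 RPKM. Neat1 ranged from 7.66 to 15.6 RPKM and Mir22hg from 6.31 to 13.2 RPKM, both across the Gas5 range of 8.74 to 11.3 RPKM. Snhg1 ranged from 5.58 to 8.01 RPKM and overlapped Neat1 and Mir22hg but not Gas5, so of these 4 only Gas5 and Snhg1 were separated. Annotated exons cover 97% of the span of Gas5 and 100% of that of Snhg1, Snhg12 and Neat1. The order by RPKM depends on these annotated lengths, and whether it holds for the spliced RNA was not tested. Snhg3 rested on a mean of 20.5 counts, and 86.3% of its exon bases lie in exons of other genes, mostly the antisense Gm17300. Counting did not use strand, so its level is uncertain.

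**Figure D2:**
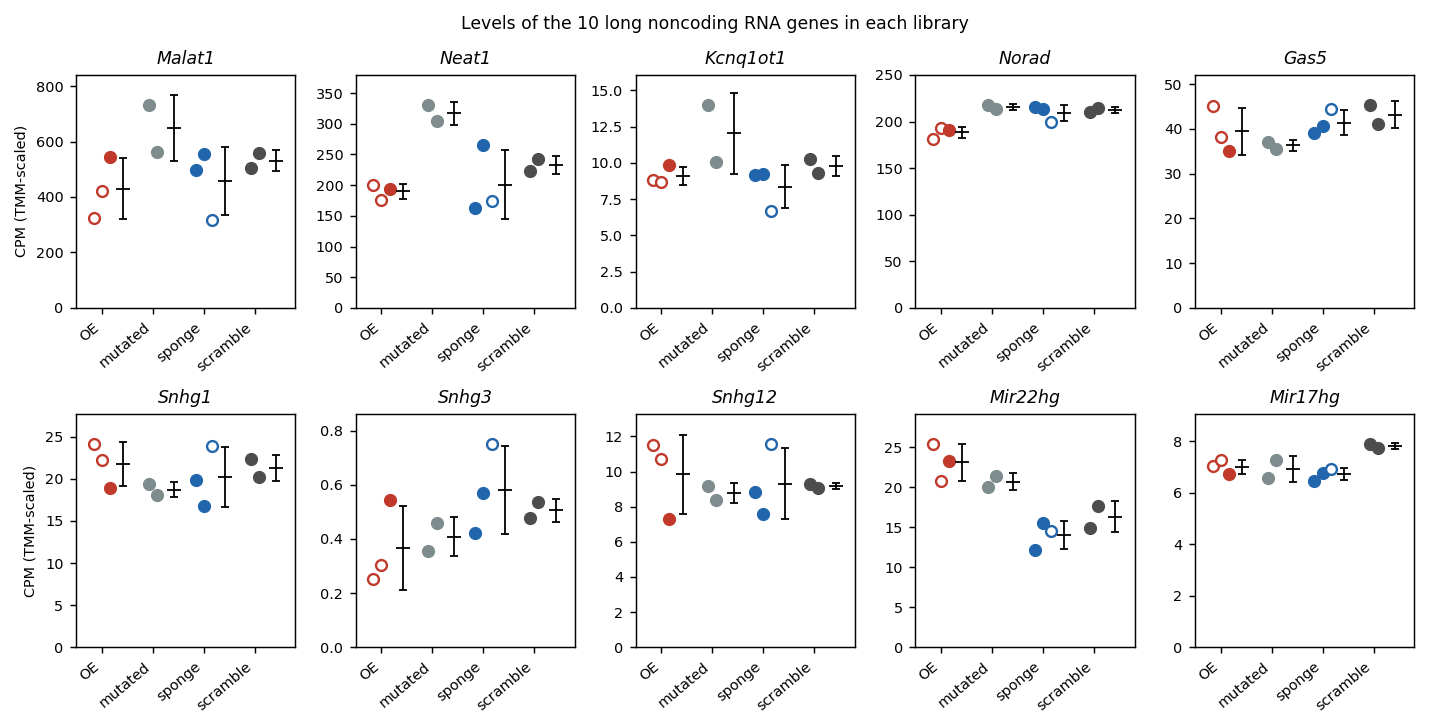
Level of each of the 10 genes in CPM (vertical axis, from 0) in every library of the overexpression (OE), mutated control, sponge and scramble groups; points are libraries, open points are overexpression replicates 1 and 2 and sponge replicate 3, and the bar beside them is the mean with 1 SD. Mir22hg lies between 19.97 and 25.4 CPM with the miR-342-3p vectors and between 12.1 and 17.7 CPM with the sponge vectors.

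With edgeR on all 10 libraries after the filter, Mir22hg was the only one of the 10 genes that passed a test of any difference among the 4 groups (edgeR quasi-likelihood F = 16.9, adjusted p = 0.0494 over 15767 genes, where 0.419% of genes were called). In other settings Neat1 passed this test too. Its adjusted p was 0.00162 with DESeq2 (849 genes called) and 0.00844 with edgeR without sponge replicate 2 (47 genes called). Mir22hg had 25.4, 20.8 and 23.2 CPM with overexpression, against 19.97 and 21.4 CPM in the mutated control. It had 12.1, 15.5 and 14.5 CPM with the sponge, against 14.9 and 17.7 CPM in the scramble control. All 5 libraries with a miR-342-3p vector, native or mutated, lay above all 5 with a sponge vector, miR-342-3p sponge or scramble. The mean was 23.1 ± 2.30 CPM (SD, n = 3) with overexpression, against 20.7 ± 1.02 CPM (SD, n = 2) in the mutated control. Sponge libraries averaged 14.1 ± 1.74 CPM (SD, n = 3), against 16.3 ± 1.94 CPM (SD, n = 2) for scramble libraries. Neighbours in the order of the means overlapped within a vector type, and the mutated control did not overlap the scramble control below it.

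Mir22hg was 1.65-fold higher with overexpression than with the sponge (log2 0.72, SE 0.11, edgeR adjusted p = 0.0193). In that comparison 0.767% of tested genes were called, and the groups did not overlap in 17.8% of genes. Averaged over both miR-342-3p vectors against both sponge vectors, it was 1.44-fold higher (log2 0.53, SE 0.09, edgeR adjusted p = 0.0401), where 0.241% of genes were called and 3.68% did not overlap. Both comparisons were added after the levels had been seen. The rise against the sponge lost its call without overexpression replicate 2 (edgeR adjusted p = 0.0510) and without sponge replicate 1 (edgeR adjusted p = 0.0925), and kept it in the other 8 of 10 settings that left out 1 library. The call over vector types held in 3 of the 10 settings, with edgeR adjusted p from 0.0229 to 0.301, and the call over the 4 groups in 1 of 10, without sponge replicate 3 (0.0389), with a highest value of 0.185. None of the comparisons within a vector type called it: overexpression minus mutated control gave log2 0.16 (SE 0.12) and sponge minus scramble gave log2 −0.22 (SE 0.12). In the comparison of overexpression with the sponge, vector type and the dose of miR-342-3p cannot be told apart.

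Mir22hg lies at chr11:75352365-75357502 (plus strand) in the deposited file, whose annotation gives all gene positions below, and 10.7% of its exon bases are shared with Tlcd2. The genes whose log2 CPM followed it most closely over the 10 libraries were Nckap5l (Pearson r = 0.948) and Zyx (r = 0.947), the second encoding a focal adhesion protein. These r values, and the others below, describe 10 libraries that share groups and differ in depth, and are the highest among 9862 genes ranked.

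Mir17hg, whose microRNAs act on the cell cycle and on apoptosis, was the gene with the smallest spread for its level. Its SD of log2 CPM over the libraries was 0.09, and 9.76% of genes of like level had a smaller one. It had 7.04, 7.26 and 6.73 CPM with overexpression, against 6.57 and 7.28 CPM in the mutated control, and these groups overlapped (log2 0.02, SE 0.09). With the sponge it had 6.47, 6.78 and 6.91 CPM, against 7.88 and 7.72 CPM in the scramble control, all 3 sponge libraries below both scramble libraries. That difference of log2 −0.21 (SE 0.09) had an unadjusted p of 0.0317 and an edgeR adjusted p of 1. Ikbip (r = 0.958) and Clec4e (r = 0.859) followed Mir17hg most closely. The gene lies at chr14:115280311-115284159 (plus strand). Of 15 tested regulators and targets of its microRNAs, 0 passed the test in either direction in overexpression minus mutated control, and 3 were above 0 (median log2 −0.15, against −0.01 over all genes). The proapoptotic target Bcl2l11 had 67.4, 67.9 and 89.0 CPM with overexpression, against 111.1 and 115.5 CPM in the mutated control (log2 −0.60, SE 0.14, edgeR adjusted p = 0.0882). Sponge libraries had 94.5, 114.7 and 83.1 CPM of it, against 108.6 and 100.3 CPM in scramble libraries. Bcl2l11 was thus lower in overexpression replicates 1 and 2 and sponge replicate 3 than in any other library, as were 8.99% of tested genes. Without overexpression replicate 1 the median of the list was log2 −0.07, with 2 above 0.

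Overexpression was set against the mutated control to ask what miR-342-3p changes, and none of the 10 genes passed the test there. Over all genes, 0.539% passed (85 genes), and 0 passed without mutated control replicate 1 or without its replicate 2. The unadjusted p was under 0.05 for 4 of the 10, Malat1, Neat1, Kcnq1ot1 and Norad, against 18.2% of all genes, and DESeq2 called Neat1 and Norad, against 3.84% of the genes it adjusted. In these 4 genes every overexpression library lay below both control libraries. Groups without overlap were common in this comparison, in 38.2% of genes overall and in 19.3% with overexpression lower. The 10 genes split evenly, 5 above and 5 below 0, with a median of log2 −0.09, against −0.01 over all genes.

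Neat1 had 200.6, 176 and 193 CPM with overexpression, against 331 and 304 CPM in the mutated control. Sponge libraries had 162, 265 and 174 CPM, against 222 and 243 CPM in the scramble control. The mutated control was thus above every other library, and the sponge libraries spread across the scramble values. Overexpression minus mutated control was log2 −0.74 (SE 0.17, 95% interval −1.11 to −0.37, edgeR adjusted p = 0.0809). The adjusted p was 0.00141 by DESeq2, 0.0259 with edgeR on these groups alone and 0.00569 with edgeR without sponge replicate 2, and 0.474 at most when 1 library was left out. Mutated control minus scramble was log2 0.45 (SE 0.18, edgeR adjusted p = 0.702). With edgeR on these control groups alone the adjusted p was 8.52e-05, in a setting where 574 of 15157 genes passed. Sponge minus scramble was log2 −0.22 (SE 0.17, edgeR adjusted p = 1). Sponge minus mutated control was log2 −0.66 (SE 0.17, edgeR adjusted p = 0.138).

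Neat1 lies at chr19:5874736-5895898 (minus strand), and 2.42% of its exon bases are shared with other genes. Its closest followers were the collagenase gene Mmp13 (r = 0.947) and Bmp2, a growth factor gene (r = 0.938). Of 29 tested genes of paraspeckle proteins, 0 passed in either direction in overexpression minus mutated control and 10 were above 0 (median log2 −0.02). Pspc1, a core paraspeckle protein, had 29.5, 30.9 and 30.3 CPM with overexpression, against 29.5 and 33.7 CPM in the mutated control. It had 26.1, 27.7 and 26.0 CPM with the sponge, against 29.2 and 30.7 CPM in the scramble control (log2 −0.17, SE 0.07, edgeR adjusted p = 1), groups without overlap. Nono, its partner, had 384, 373 and 375 CPM with overexpression, against 371 and 378 CPM in the mutated control. It had 402, 409 and 418 CPM with the sponge, against 402.8 and 389.5 CPM in the scramble control.

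Malat1 had 324, 423 and 543 CPM with overexpression, against 732 and 563 CPM in the mutated control. It had 499, 554 and 318 CPM with the sponge, against 504 and 557 CPM in the scramble control. The low values were overexpression replicates 1 and 2 and sponge replicate 3, and the highest was mutated control replicate 1. Overexpression minus mutated control was log2 −0.59 (SE 0.23, edgeR adjusted p = 0.232), with the interval from −1.11 to −0.08. It was log2 −0.39 without mutated control replicate 1. Sponge minus scramble was log2 −0.22 (SE 0.24), and leaving out sponge replicate 3 gave −0.01, sponge replicate 2 gave −0.38 and scramble replicate 2 gave −0.14. Mutated control minus scramble was log2 0.29 (SE 0.26), with 0.09 without mutated control replicate 1 and 0.46 without its replicate 2. Malat1 varied more than 99.7% of genes of like level, with an SD of log2 CPM of 0.37, and Neat1 more than 99.5%.

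Malat1 lies at chr19:5845717-5852704 (minus strand), beside Neat1, and 7.71% of its exon bases are shared with other genes. Ccnt2, a cyclin of the transcription elongation factor P-TEFb (r = 0.981), and Odf2l (r = 0.977) followed it most closely. Among 30 tested genes of nuclear speckles and splicing factors, 0 passed in either direction in overexpression minus mutated control, and 9 were above 0 (median log2 −0.06). Srsf5, a splicing factor, had 436, 409.7 and 398 CPM with overexpression, against 448 and 469 CPM in the mutated control (log2 −0.15, SE 0.07, edgeR adjusted p = 0.302). Clk1, a kinase of such factors, had 123, 118 and 131 CPM with overexpression, against 141 and 134 CPM in the mutated control (log2 −0.15, SE 0.07).

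Kcnq1ot1 had 8.80, 8.68 and 9.84 CPM with overexpression, against 13.99 and 10.06 CPM in the mutated control. It had 9.16, 9.26 and 6.65 CPM with the sponge, against 10.3 and 9.29 CPM in the scramble control. One mutated control library stood high and sponge replicate 3 stood low, and the rest lay close together. Overexpression minus mutated control was log2 −0.41 (SE 0.16, edgeR adjusted p = 0.227), and log2 −0.15 without mutated control replicate 1. Sponge minus scramble was log2 −0.22 (SE 0.16), with all sponge libraries below both scramble libraries. It lies at chr7:142757195-142850286 (minus strand), antisense to Kcnq1. Ptbp2, a splicing regulator (r = 0.924), and Pparg, a nuclear receptor (r = 0.896), followed it most closely.

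In the Kcnq1 imprinted domain, 1 of 14 tested genes passed the test in overexpression minus mutated control, against 0.539% of all genes. Dhcr7, which encodes the last enzyme of cholesterol synthesis, was higher with overexpression (log2 0.71, SE 0.13, edgeR adjusted p = 0.0489). It had 75.9, 81.4 and 66.3 CPM in overexpression libraries, against 45.3 and 46.1 CPM in the mutated control. The sponge libraries had 64.8, 52.4 and 74.5 CPM, against 53.5 and 60.2 CPM in the scramble control. Both mutated control libraries thus lay below all others (mutated control minus scramble log2 −0.32, SE 0.14, edgeR adjusted p = 0.772). Dhcr7 was also higher in overexpression replicates 1 and 2 and sponge replicate 3 than in any other library, as were 10.3% of tested genes. The call of Dhcr7 was absent without overexpression replicate 1, and without either mutated control library no gene passed. None of the 14 passed lower, and 10 were above 0 (median log2 0.23). Cdkn1c, the imprinted cell cycle inhibitor that Kcnq1ot1 silences in cis, had 2.79, 2.33 and 2.37 CPM with overexpression, against 1.95 and 1.81 CPM in the mutated control. Sponge libraries had 2.42, 2.66 and 2.37 CPM of it, against 2.68 and 2.66 CPM in scramble libraries. The mutated control was thus the low group (mutated control minus scramble log2 −0.50, SE 0.15, edgeR adjusted p = 0.460). In sponge minus scramble 0 of the 14 passed.

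Norad had 182, 193 and 191 CPM with overexpression, against 218 and 214 CPM in the mutated control, a narrow gap that no library crossed. It had 215, 213 and 199 CPM with the sponge, against 210.4 and 215 CPM in the scramble control, and these overlapped. Overexpression minus mutated control was log2 −0.20 (SE 0.06, edgeR adjusted p = 0.144; DESeq2 adjusted p = 0.0499). The overexpression libraries also lay below all scramble libraries (log2 −0.18, SE 0.06, edgeR adjusted p = 0.278) and all sponge libraries (log2 −0.15, SE 0.05, edgeR adjusted p = 0.177). Groups without overlap, in either direction, were found for 31% and 17.8% of all genes in these comparisons. Norad lies at chr2:156229980-156234921 (minus strand), with no exon base in another gene. The zinc finger genes Zfp317 (r = 0.980) and Zkscan1 (r = 0.963) followed it most closely. Of 16 tested Pumilio genes and targets of the axis, 0 passed in either direction, and 8 were above 0 in overexpression minus mutated control. Ccnb1, the mitotic cyclin, had 108.8, 115.7 and 113.7 CPM with overexpression, against 92.1 and 94.5 CPM in the mutated control (log2 0.27, SE 0.06, edgeR adjusted p = 0.0809). Sponge libraries had 109.8, 105.9 and 110.0 CPM of Ccnb1, against 108.8 and 100.8 CPM in scramble libraries, so the mutated control was the lowest of all groups (mutated control minus scramble log2 −0.17, SE 0.07, edgeR adjusted p = 0.689).

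The small nucleolar RNA host genes overlapped between each vector and its own control, in all 4 genes and both comparisons. Gas5, a growth-arrest RNA, had 45.2, 38.3 and 34.97 CPM with overexpression, against 37.2 and 35.4 CPM in the mutated control, and overlapped (log2 0.13, SE 0.10, 95% interval −0.10 to 0.35). It had 39.1, 40.7 and 44.4 CPM with the sponge, against 45.4 and 41.0 CPM in the scramble control. The mutated control lay below the scramble control without overlap (log2 −0.25, SE 0.11, edgeR adjusted p = 0.772). Gas5 lies at chr1:160861992-160866116 (plus strand), and 18.5% of its exon bases are shared, mostly with the small RNAs it hosts. The ribosomal protein genes Rpl23 (r = 0.972) and Rpl26 (r = 0.957) followed it most closely.

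Snhg1 had 24.1, 22.3 and 18.9 CPM with overexpression, against 19.3 and 18.1 CPM in the mutated control. It had 19.8, 16.8 and 23.9 CPM with the sponge, against 22.4 and 20.2 CPM in the scramble control. Both pairs overlapped (log2 0.22, SE 0.14, and log2 −0.08, SE 0.14). Snhg12 had 11.5, 10.7 and 7.27 CPM with overexpression, against 9.16 and 8.37 CPM in the mutated control. With the sponge it had 8.83, 7.56 and 11.6 CPM, against 9.28 and 9.05 CPM in the scramble control. Both pairs overlapped here as well (log2 0.19, SE 0.19, and log2 0.02, SE 0.19). Snhg3 had 0.253, 0.303 and 0.545 CPM with overexpression, against 0.357 and 0.460 CPM in the mutated control. It had 0.422, 0.571 and 0.750 CPM with the sponge, against 0.476 and 0.535 CPM in the scramble control, and both pairs overlapped.

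Snhg1 (chr19:8700801-8703811, plus strand) and Snhg12 (chr4:132035932-132038762, plus strand) shared the closest pattern among the 10 genes, with r = 0.901 over 10 libraries. Snhg3 (chr4:132075325-132080997, minus strand) lies near Snhg12. Gas5 correlated with Snhg1 at r = 0.672 and with Snhg12 at r = 0.619. Malat1 ran with Kcnq1ot1 (r = 0.844), Norad (r = 0.713) and Neat1 (r = 0.699), and against Snhg1 (r = −0.783), Snhg12 (r = −0.750) and Gas5 (r = −0.629). The closest followers were Ndufab1 (r = 0.960) and Rpp25l (r = 0.957) for Snhg1, Nup62 (r = 0.956) and Clpp (r = 0.950) for Snhg12, and Stk24 (r = 0.872) and Tm9sf1 (r = 0.847) for Snhg3. Over 32 other tested host genes of small nucleolar RNAs, 0 passed in either direction in overexpression minus mutated control, and 25 were above 0 (median log2 0.14). Without overexpression replicate 1 the number was 23 (median log2 0.08), and without replicates 1 and 2 and sponge replicate 3 it was 17 (median log2 0.03). Of 30 tested genes that start with a pyrimidine tract, 0 passed and 29 were above 0 (median log2 0.12). This moved with overexpression replicate 1, which held 2.67% of its counts in ribosomal protein genes, against 2.21% and 2.06% in the other overexpression libraries and 2.15% and 2.14% in the mutated control. Without that replicate 21 of the 30 were above 0 (median log2 0.03), and without replicates 1 and 2 and sponge replicate 3, 15 were (median log2 0.01). Rpl23 had 496.5, 391.6 and 365.9 CPM with overexpression, against 386 and 382.8 CPM in the mutated control, with replicate 3 below both controls. In mutated control minus scramble, which shares the mutated control, 1 of these 30 was above 0 (median log2 −0.08). Of 21 tested genes of nonsense-mediated decay, 0 passed and 14 were above 0 (median log2 0.05), against 6 without those 3 libraries (median log2 −0.01).

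**Figure D3:**
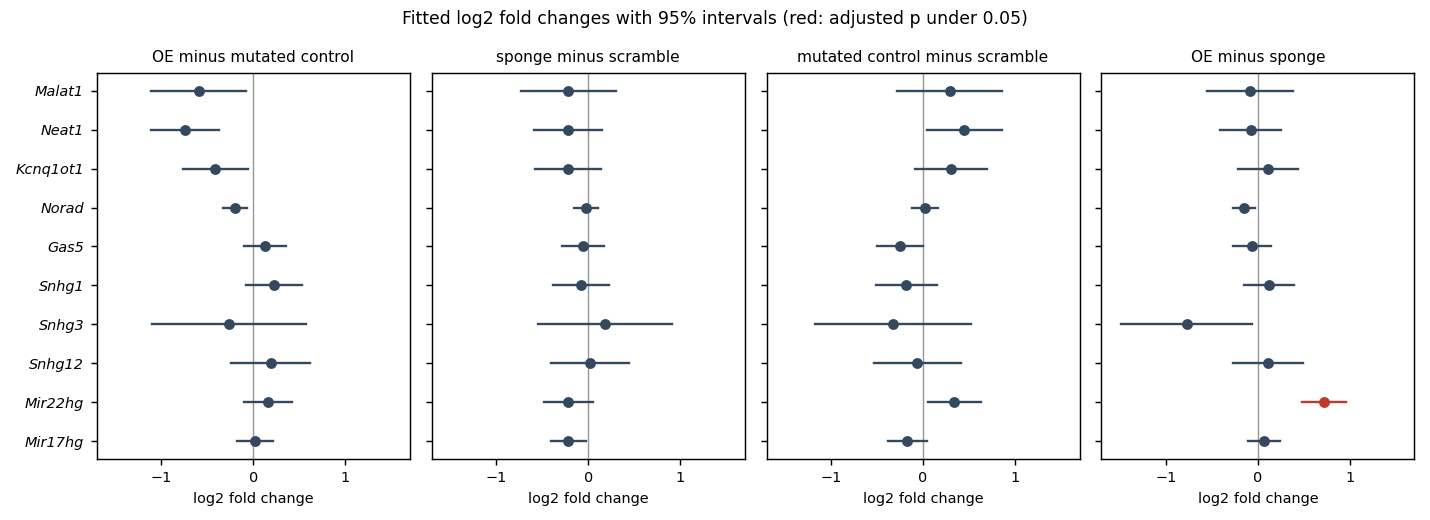
Fitted log2 fold changes (horizontal axis) of the 10 genes with 95% intervals in 4 comparisons, with overexpression abbreviated OE; red marks an edgeR adjusted p under 0.05. Mir22hg in overexpression minus sponge (log2 0.72) is the only red point, and Neat1, Malat1, Kcnq1ot1 and Norad have intervals below 0 in overexpression minus mutated control without passing.

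The sponge was set against its scramble control to ask what removal of miR-342-3p changes, and 0 of the 10 genes passed (edgeR), with 1, Mir17hg, at an unadjusted p under 0.05. Of all tested genes 0% passed, with 368 genes at an unadjusted p under 0.05 (2.33%), and DESeq2 called 1 (0.00634%). The groups did not overlap for Kcnq1ot1 and Mir17hg, both with the sponge lower, against 8.3% of all genes in that direction and 15.2% in either. The median of the 10 genes was log2 −0.15, against −0.0013 over all genes, and 8 were below 0. The widest interval was that of Snhg3 (−0.55 to 0.91) and the narrowest that of Norad (−0.15 to 0.11). In the difference between the overexpression effect and the sponge effect, 0 of the 10 genes and 0% of all genes passed with edgeR, and 1271 genes (8.06%) had an unadjusted p under 0.05. Among the 10 genes that held for Mir22hg (log2 0.38, SE 0.17, edgeR adjusted p = 0.614), and DESeq2 called 48 genes in all (0.369%) and none of the 10.

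The mutated control was set against the scramble control to compare the controls of the different vectors. None of the 10 genes passed (edgeR, with 2 at an unadjusted p under 0.05 and 0 by DESeq2), and 0.0254% of all genes did. Over all genes, 6.47% had an unadjusted p under 0.05 and DESeq2 called 0.783% of those it adjusted. With edgeR on these groups alone, Neat1, Gas5 and Mir22hg passed (edgeR adjusted p 8.52e-05, 0.0257 and 0.0270), where 574 of 15157 genes did. The groups did not overlap for 7 of the 10 genes, Malat1, Neat1 and Mir22hg higher and Gas5, Snhg1, Snhg3 and Mir17hg lower, but with 2 libraries a group this held for 48.4% of all genes (24.1% higher, 24.2% lower). Among the further pairs of groups, overexpression minus scramble called 0 of the 10 genes with edgeR (0.0444% of all genes). Neat1, Norad and Mir17hg lay lower and Mir22hg higher without overlap, against 31% of all genes in either direction. Sponge minus mutated control called 0 with edgeR (0.311% of all genes). There Malat1, Neat1, Kcnq1ot1 and Mir22hg lay lower and Gas5 higher without overlap, against 34.5% of all genes in either direction.

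Overexpression replicates 1 and 2 and sponge replicate 3 were set beside the other 7 libraries as a description, since they were picked with earlier results of these data in view and form no group of the study. Malat1 was lower in all 3 (324, 423 and 318 CPM) than in any of the other 7 (499 to 732 CPM). Kcnq1ot1 was lower in all 3 as well (8.80, 8.68 and 6.65 CPM, against 9.16 to 13.99 CPM), and Snhg12 was higher in all 3 (11.5, 10.7 and 11.6 CPM, against 7.27 to 9.28 CPM). Among all tested genes, 8.99% were lower and 10.3% higher in all 3 libraries. Snhg1 came near to such a split (24.1, 22.3 and 23.9 CPM, against 16.8 to 22.4 CPM). The other 6 genes overlapped. Neat1 had 200.6, 176 and 174 CPM, against 162 to 331 CPM, and Mir22hg had 25.4, 20.8 and 14.5 CPM, against 12.1 to 23.2 CPM.

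**Figure D4:**
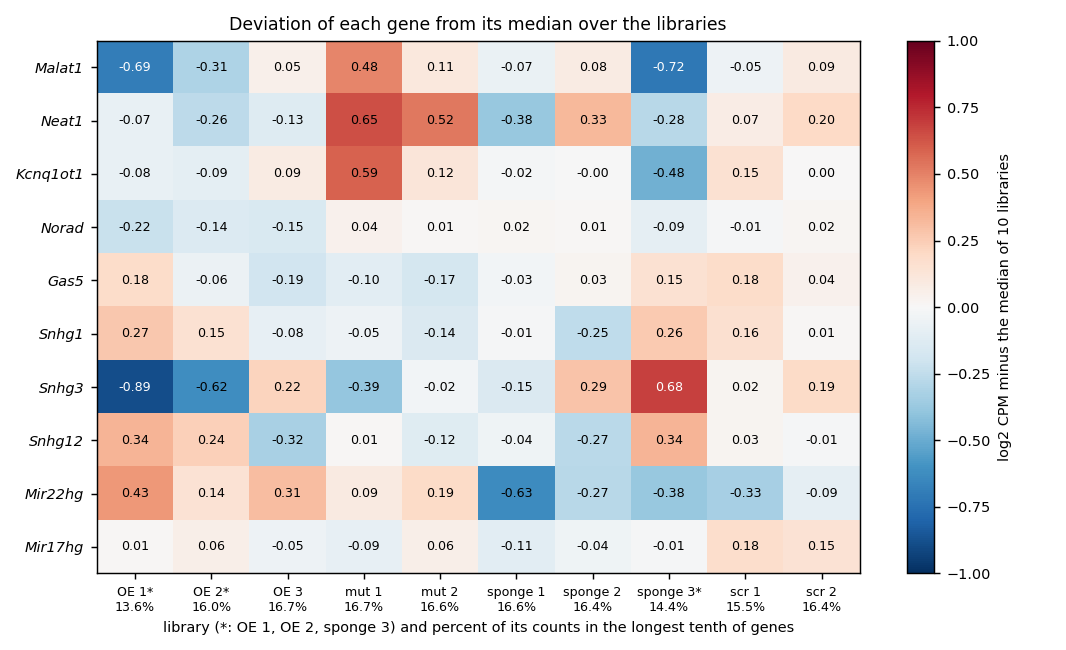
Log2 CPM of each gene minus its median over the 10 libraries (colour and printed value), with libraries across in the order overexpression (OE), mutated control (mut), sponge and scramble (scr), and the percent of each library's counts in the longest 10% of genes under its name. Malat1 is at −0.69, −0.31 and −0.72 in the starred libraries, while Mir22hg is above 0 in the 5 libraries with a miR-342-3p vector and below 0 in the other 5.

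The share of counts in the longest 10% of genes moved with part of this split. It was 13.6%, 16.03% and 14.4% in overexpression replicates 1 and 2 and sponge replicate 3, against 15.5% to 16.7% in the other 7 libraries. Genes of ribosomal proteins held 2.67% of counts in overexpression replicate 1 and 2.58% in sponge replicate 3, against 2.06% to 2.44% in the other 8 libraries. The part of either measure in the levels of the 10 genes was not tested.

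Without these 3 libraries the overexpression group has 1 library, which is assumed to vary like the other groups. Overexpression minus mutated control was then log2 −0.25 for Malat1, −0.71 for Neat1, −0.29 for Kcnq1ot1 and −0.18 for Norad. The sizes for Neat1 and Norad were thus close to those with all libraries, while that for Malat1 was under the −0.59 of all libraries. Gas5, Snhg3, Snhg12 and Mir17hg turned sign (log2 −0.05, 0.43, −0.27 and −0.04). The rise of Mir22hg in overexpression minus sponge was log2 0.74 without them, against 0.72 with all libraries. Gas5 in mutated control minus scramble was log2 −0.25 without them, the same as with all libraries.

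Other long noncoding RNAs and microRNA hosts were looked at beside the 10 genes. Of 17 tested nuclear and imprinted long noncoding RNAs, 0 passed in either direction in overexpression minus mutated control, and 3 were above 0 (median log2 −0.23; −0.13 without overexpression replicate 1). Airn, the imprinted antisense RNA of the Igf2r domain, had 3.98, 5.21 and 7.20 CPM with overexpression, against 8.19 and 8.40 CPM in the mutated control (log2 −0.64, SE 0.20, edgeR adjusted p = 0.159). The sponge libraries had 6.78, 7.21 and 5.27 CPM of Airn, against 5.92 and 6.96 CPM in the scramble libraries. Airn was thus lower in overexpression replicates 1 and 2 and sponge replicate 3 than in any other library, as were 8.99% of tested genes. Ftx, of the X inactivation centre, had 4.69, 5.11 and 4.67 CPM with overexpression, against 6.41 and 6.15 CPM in the mutated control (log2 −0.38, SE 0.11, edgeR adjusted p = 0.139). Of 17 other tested host genes of microRNAs, 0 passed and 7 were above 0. Pank1, host of miR-107, had 8.76, 9.57 and 10.2 CPM with overexpression, against 12.0 and 11.7 CPM in the mutated control (log2 −0.33, SE 0.09, edgeR adjusted p = 0.124). Its 9.98, 9.32 and 9.91 CPM with the sponge, against 9.16 and 10.05 CPM in the scramble control, lay in the range of overexpression, so the mutated control alone stood apart. Mir155hg, host of the inflammatory miR-155, had 0.889, 1.18 and 1.17 CPM with the sponge, against 1.64 and 1.69 CPM in the scramble control, groups without overlap (log2 −0.62, SE 0.21, edgeR adjusted p = 1). Of 18 tested neighbours of the 10 genes, 0 passed in either direction.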

How the data were processed

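The authors' deposited table holds raw counts of reads per gene. They were made with featureCounts 2.0.1 on GENCODE vM30 (by gene name, strand setting 0, minimum overlap 10 bases), per the file headers. STAR 2.7.6a, Trimmomatic, Subread, FastQC 0.11.6 and the build GRCm38 are named in the submitters' processing notes. The header annotation belongs to a later build, so gene coordinates are the file's own, and coordinates of printed sequences are those of GRCm38.

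Lines hold 15 fields for 16 column names: a missing separator joins sponge replicate 3 to a scramble library. They were split by negative binomial likelihood (dispersion 0.1, likelihood ratio 100), leaving out 51 of 55866 genes and none of the 10. In 19 pairs joined on purpose, at least 99.9874% of genes were recovered. Scramble replicate numbers follow the header order.

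The test was edgeR 4.0.16 (quasi-likelihood, robust, TMM, filter by group; R 4.3.3) on all 10 libraries, with Benjamini-Hochberg adjusted p-values over 15767 genes and a threshold of 0.05. CPM use TMM factors, RPKM divide CPM by exon length, and SE is the log2 fold change over the square root of F. The code was tested on simulated data. Alternatives included DESeq2 1.42.0 and limma-voom (limma 3.58.1). Genes other than the 10 were named as the called genes of a list or its 2 smallest p, and as the 2 highest r. The Kupffer cell and macrophage markers were named beyond that rule. The genes and lists were chosen with earlier results of these data known.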

Additional observations from a re-analysis of the deposited data

How the results depend on the processing

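Of 790 recomputed fold changes of the 10 genes under 20 alternatives, most kept direction and side of the threshold. In overexpression minus mutated control, 85 genes passed; 500 did with DESeq2, 1390 without the filter, 34 with only these groups, 0 with a replicate block by either numbering, 133 without overexpression replicates 1 and 2 and sponge replicate 3, and 0 to 279 with 1 library left out. In sponge minus scramble, 0 passed; 1 did with DESeq2, 24 without the filter, 3 without those 3 libraries. In mutated control minus scramble, 4 passed; 90 did with DESeq2, 149 without the filter, 574 with only these groups, 1 with either replicate block, 445 without those 3 libraries, 1 without the libraries of the joined field, and 0 to 36 with 1 left out. For the difference of effects, 0 passed; 48 did with DESeq2, 2 with upper quartile factors, 331 without the filter, 77 without those 3 libraries, and 0 to 7 with 1 left out. For any of the 4 groups, 66 passed; 849 did with DESeq2, 1707 without the filter, 5 and 6 with the replicate block by title and by description number, 766 without those 3 libraries, and 12 to 273 with 1 left out. The cause was not tested.

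By title number, deviations of same-numbered libraries from their group correlated at r −0.842 to 0.466 (13 pairs, median −0.024). The median was 0.024 over 24 other pairs. In a group of 2 libraries the deviations mirror each other, so this cannot show whether same-numbered libraries share more than a number. With the replicate block Mir22hg over the 4 groups had an edgeR adjusted p of 0.216 (title) and 0.241 (description). Its adjusted p was 1.13e-06 with DESeq2, 0.0589 with upper quartile factors, 0.0517 with limma-voom and 0.1004 without the libraries of the joined field, which also ended its call over vector types (0.187). Without the filter, Malat1, Neat1 and Kcnq1ot1 passed in overexpression minus mutated control (edgeR adjusted p 1.01e-11, 1.05e-16 and 0.0217), where 1390 of 29774 genes did. Malat1 was log2 −0.586 there, against −0.592 with the filter, and its SE was 0.0764, against 0.234. Neat1 then also passed in mutated control minus scramble (edgeR adjusted p 0.000415), where 149 genes did. Malat1 and Neat1 passed in the difference of effects (edgeR adjusted p 0.0479 and 0.00151), where 331 genes did. Over the 4 groups Malat1, Neat1, Kcnq1ot1 and Mir22hg passed (edgeR adjusted p 2.48e-12, 1.98e-18, 0.00413 and 4.83e-12), where 1707 genes did.

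Small fold changes turned sign. In sponge minus scramble, Snhg12 was log2 −0.0065 (limma-voom), −0.0162 (replicate block, description), −0.146 (without the joined field) and −0.163 (without those 3 libraries), Snhg3 −0.0694 (replicate block, title), −0.0998 (without the joined field) and −0.034 (without those 3), and Norad 0.0088 (without those 3). Without those 3, the difference of effects was 0.459 for Snhg3 and −0.106 for Snhg12, and overexpression minus mutated control −0.0534 for Gas5, 0.425 for Snhg3, −0.269 for Snhg12 and −0.0375 for Mir17hg. With 1 library left out, ranges spanned 0 for Mir17hg in overexpression minus mutated control (−0.0516 to 0.108), Kcnq1ot1 in the difference of effects (−0.394 to 0.0713), and in sponge minus scramble for Gas5 (−0.130 to 0.0144), Snhg1 (−0.216 to 0.042), Norad (−0.0396 to 0.0102), Snhg3 (−0.0318 to 0.366) and Snhg12 (−0.162 to 0.153). With 2 or 3 libraries a group and 20.5 counts on average, Snhg3 allowed no statement.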
